A study of Mus musculus with 2 samples.

Results

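The lysosomal genes described here are 37 genes that code for lysosomal proteases, hydrolases and membrane proteins, taken from a fixed list of symbols and read from the 32285 features of each matrix. Their levels were taken from single-cell RNA-Seq of mouse mitral valves, made with a droplet method that, per the labels, reads the 3′ ends of transcripts. All 37 symbols matched a single row, and all 37 had a unique molecular identifier (UMI), the tag that marks each captured RNA molecule, in the kept cells of both libraries. One library came from wild-type mice (WT, Fbn1+/+) and the other from mgR mice (Fbn1 mgR/mgR), which carry on both chromosomes a hypomorphic allele that lowers fibrillin-1 and is used as a model of Marfan syndrome. According to the methods of the study, the WT mice were littermates, and live cells were sorted from leaflets that had been dissociated with collagenase A together with elastase. Age and number of animals are stated by the study but not in the labels of these libraries, and are not repeated here. Each genotype has 1 library, so no test between them could be made. Values are UMIs of a gene scaled to 1000000 UMIs of a cell class (CPM), and the intervals given with them are exact 95% intervals that cover counting error only, not the spread between animals.

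The lysosome is the acidic organelle in which proteins, lipids and glycans delivered by endocytosis, phagocytosis and autophagy are degraded. Cathepsins are its main proteases and most are cysteine proteases made as inactive precursors. The soluble enzymes are carried from the Golgi by mannose 6-phosphate receptors, and the limiting membrane is lined by heavily glycosylated proteins of the LAMP family. Many lysosomal genes share a short promoter element, the CLEAR element, which is bound by TFEB, TFE3 and MITF, transcription factors that mTORC1 holds in the cytoplasm. Macrophages are rich in lysosomes, and fibroblasts use cathepsin K and cathepsin L in the turnover of collagen and elastin.

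Cells were kept if they had between 200 and 5000 genes with a UMI and if mitochondrial transcripts gave no more than 10% of their UMIs, which left 875 of 1104 WT barcodes and 3438 of 3802 mgR barcodes, with medians of 5033 and 7370 UMIs per cell. No kept barcode was found in both libraries. Macrophages were cells with at least 10 UMIs of C1qa, C1qb and C1qc together (224 WT and 1539 mgR cells), fibroblasts had at least 10 UMIs of Col1a2, Col3a1 and Dcn (322 and 879 cells), and endothelial cells had at least 2 UMIs of Pecam1 and Cdh5 (29 and 150 cells). Cells that met several of these rules, 33 in WT and 348 in mgR, were left out of all 3 classes, and most of them met the fibroblast and endothelial rules together (28 and 304 cells). Markers that the rules did not use were highest in the class of their name among these 3. The 8 macrophage markers summed to 9067 CPM in WT and 10774 CPM in mgR macrophages, beside 25.5 and 99.2 CPM in fibroblasts and 247 and 173 CPM in endothelial cells. The 6 fibroblast markers summed to 5659 and 5901 CPM in fibroblasts, beside 995 and 884 CPM in endothelial cells, and the 6 endothelial markers to 1607 and 1803 CPM in endothelial cells, beside 129 and 147 CPM in fibroblasts. Fbn1 was at 171 CPM in WT fibroblasts and 135 CPM in mgR fibroblasts, a ratio of 0.790 (0.691 to 0.907). The study describes Fbn1 mRNA as severely reduced in mgR mice, and measured it by RT-PCR in cultured dermal fibroblasts. The gap between that description and the smaller drop seen here was not tested. The methods of the study state that comparisons used male mice only, whereas both libraries held cells with Xist and no Y-linked UMI as well as cells with Y-linked transcripts and no Xist, in unequal parts. This conflict could not be settled from the files. Cells with Xist but no Y-linked UMI made up 33.9% of WT and 67.5% of mgR macrophages, and 25.2% of WT and 59.5% of mgR fibroblasts.

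The lysosomal genes made up a larger part of the transcriptome in macrophages than in any other class. They gave 1.49% of all UMIs of WT macrophages (1.47% to 1.51%) and 1.59% of those of mgR macrophages (1.58% to 1.59%). In fibroblasts the share was 0.546% in WT and 0.497% in mgR, and in endothelial cells it was 0.379% and 0.392%. Melanocytes (0.714% and 0.629%) and dendritic cells (0.579% and 0.595%) lay above fibroblasts, neutrophils (0.476% and 0.466%) lay between fibroblasts and endothelial cells, and T cells were lowest at 0.173% and 0.177%. The intervals of macrophages did not overlap those of any of the other 6 classes in either library. Over single macrophages the share had a median of 1.41% in WT, with quartiles of 1.17% and 1.83%, and of 1.56% in mgR, with quartiles of 1.24% and 1.90%.

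A few genes carried much of this share. In macrophages the top 5 were Ctsb, Ctss, Psap, Ctsz and Lamp1 in both libraries, and they held 51.2% of the lysosomal UMIs in WT and 48.4% in mgR. Ctsb, which codes for the cysteine protease cathepsin B, was at 2493 CPM in WT macrophages and 2729 CPM in mgR macrophages. Ctss, coding for cathepsin S, the protease that trims the invariant chain of MHC class II, was at 1929 and 1784 CPM. In fibroblasts the order differed: Ctsl, coding for cathepsin L, led at 983 CPM in WT and 883 CPM in mgR, followed by Lamp1, Ctsb, Lamp2 and Npc2. Of the 37 genes, 27 were highest in the same class in both libraries, and 18 of those were highest in macrophages. The same count was not made over all genes, so these numbers have no background. Some of the 7 classes were small, such as the 8 mgR melanocytes and 16 WT neutrophils.

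**Figure D1:**
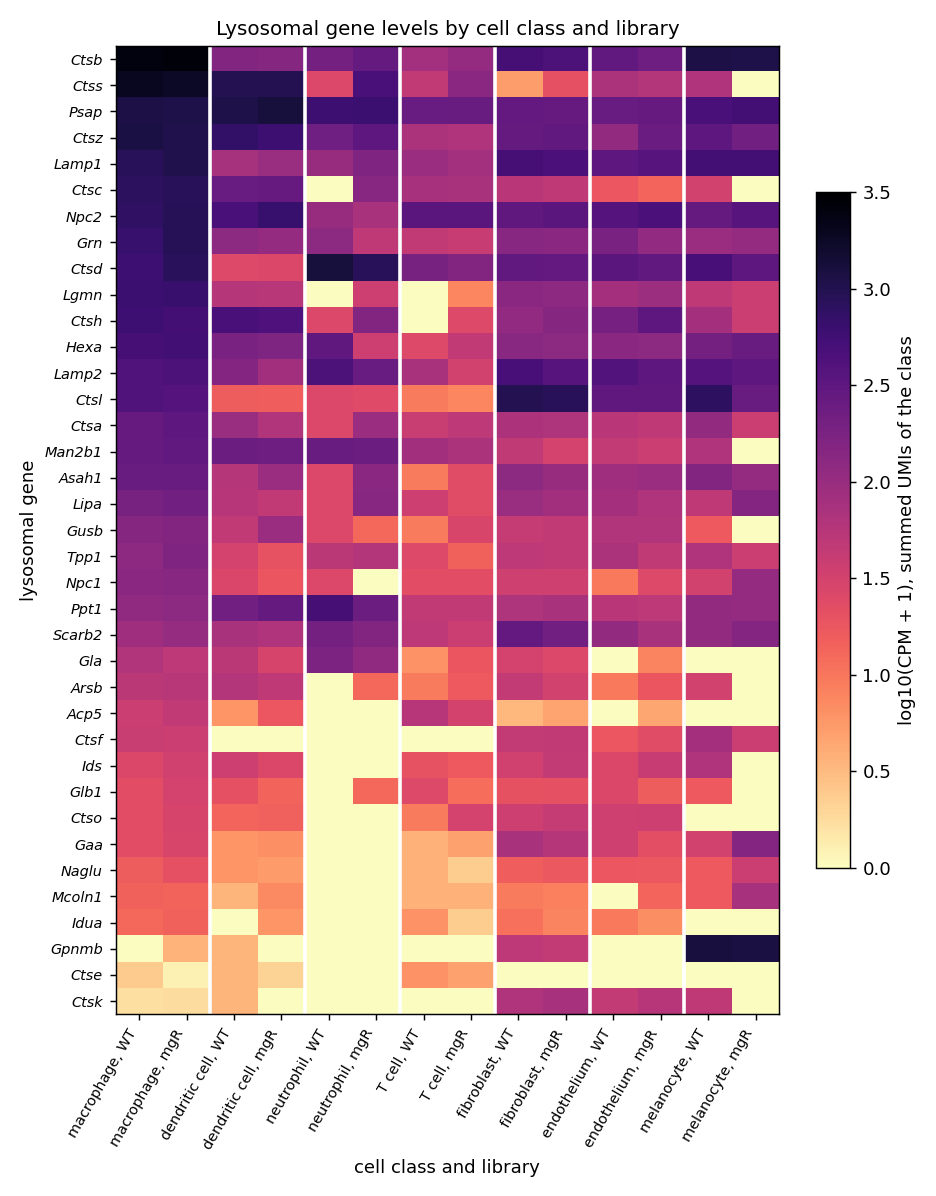
Level of each of the 37 lysosomal genes, as log10(CPM + 1) of the summed UMIs, by cell class and library; rows are sorted by their level in macrophages. Ctsb and Ctss are darkest in macrophages, Ctsl in fibroblasts, and Gpnmb is high in melanocytes (1239 and 1223 CPM) and near 0 in macrophages.

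Macrophages and fibroblasts were compared within each library to show how the degradative genes divide between them. Of the 37 genes, 33 had at least 50 UMIs in the 2 classes together in each library. Of these, 18 were at least 2-fold higher in macrophages in both libraries, against 15.1% of the 6773 genes that met the same minimum, and 5 were at least 2-fold lower, against 20.8%. The median log2 ratio of the 33 was 1.03 in WT and 1.46 in mgR, and that of all genes was -0.32 and -0.14. Scaling the 2 classes within each library by their median gene ratio left Ctsk and Gpnmb as the only genes at least 2-fold higher in fibroblasts.

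Among the cysteine cathepsins, Ctss set macrophages apart most. It was at 4.15 CPM in WT fibroblasts (7 UMIs) and 19.8 CPM in mgR fibroblasts (123 UMIs), so the macrophage level was 465-fold (226 to 1158) and 89.9-fold (75.3 to 108) higher. Ctsc, coding for cathepsin C, which activates the serine proteases of leukocyte granules, was 16-fold higher in WT and 19.1-fold higher in mgR macrophages. Ctsb was 4.79-fold and 6.18-fold higher. Ctsh, which codes for the aminopeptidase cathepsin H, was 5.17-fold and 3.72-fold higher, and Ctsz, coding for the carboxypeptidase cathepsin Z, 4.28-fold and 3.52-fold. Lgmn, coding for legumain, the endopeptidase that cuts after asparagine and matures other cathepsins, was 4.84-fold and 5.30-fold higher. These genes form the macrophage side of the protease family.

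Cathepsins K and L were on the fibroblast side. Ctsk, coding for the collagenolytic cathepsin of osteoclasts, was at 62.2 CPM in WT fibroblasts and 72.7 CPM in mgR fibroblasts, while macrophages held 1 and 10 of its UMIs, or 0.692 and 0.743 CPM. Its macrophage to fibroblast ratio was 0.011 in WT and 0.010 in mgR. Ctsl had a ratio of 0.422 (0.384 to 0.463) in WT and 0.423 (0.407 to 0.439) in mgR, and it was the most abundant of the 37 genes in fibroblasts. Ctso, a little studied cathepsin, was lower in macrophages by less than the 2-fold limit, with ratios of 0.614 and 0.70. Ctsf, coding for cathepsin F, had ratios of 0.919 (0.633 to 1.33) and 0.829 (0.712 to 0.966). Ctse, an aspartic protease, had 2 and 3 UMIs in macrophages and 0 in fibroblasts and was not compared.

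The aspartic protease Ctsd and the serine carboxypeptidase Ctsa were both higher in macrophages. Ctsd was at 583 CPM in WT and 844 CPM in mgR macrophages and at 289 and 280 CPM in fibroblasts, ratios of 2.02 and 3.02. For Ctsa the ratios were 4.02 and 4.99. Tpp1, a serine protease that takes tripeptides from the ends of proteins, had ratios of 2.47 and 3.69. Grn, coding for progranulin, a secreted and lysosomal precursor of granulins, had ratios of 4.81 and 7.11.

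The glycosidases and other hydrolases did not move as a block. Man2b1, coding for lysosomal alpha-mannosidase, was 6.15-fold and 10.0-fold higher in macrophages, Hexa, the alpha subunit of beta-hexosaminidase, 3.81-fold and 4.43-fold, and Gusb, coding for beta-glucuronidase, 3.47-fold and 3.44-fold. Acp5, the tartrate-resistant acid phosphatase, was 14.9-fold (5.48 to 56.8) and 12.3-fold (8.04 to 19.8) higher, from 4 and 22 UMIs in fibroblasts. Gaa, coding for acid alpha-glucosidase, which degrades glycogen, was on the fibroblast side, with macrophage to fibroblast ratios of 0.307 and 0.488. Arsb and Ids, sulfatases of dermatan sulfate and heparan sulfate breakdown, differed by less than 2-fold, with ratios of 1.2 and 1.65 for Arsb and of 0.786 and 0.769 for Ids. Gla, coding for alpha-galactosidase A, was close to the limit at 2.03 and 1.91, and Glb1, coding for beta-galactosidase, had 1.13 and 1.48. Idua and Naglu, enzymes of heparan sulfate breakdown, and Mcoln1, a cation channel of the lysosomal membrane, had too few UMIs in 1 of the libraries and were not compared.

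The genes of lipid handling all had ratios above 1 in both libraries. Npc1 and Npc2, which code for the proteins that move cholesterol out of the lysosome, had ratios of 3.79 and 4.01 for Npc1 and of 2.62 and 2.76 for Npc2. Psap, the precursor of the saposins that help sphingolipid hydrolases, had 4.04 and 4.14. Asah1, coding for acid ceramidase, had 2.04 and 2.49. Lipa, coding for lysosomal acid lipase, had 1.95 and 2.60, and Ppt1, which removes palmitate from proteins, 1.87 and 1.79, so neither passed 2-fold in both libraries.

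Membrane proteins were divided. Lamp1 was 1.68-fold higher in WT and 2.32-fold higher in mgR macrophages. Lamp2, whose protein also serves chaperone-mediated autophagy, was lower in WT macrophages (ratio 0.838, 0.753 to 0.931) and higher in mgR macrophages (1.24, 1.18 to 1.30). Scarb2, coding for LIMP-2, the receptor that carries glucocerebrosidase to lysosomes, was at 287 CPM in WT fibroblasts and 211 CPM in mgR fibroblasts but at 85.8 and 103 CPM in macrophages, ratios of 0.299 and 0.489. Gpnmb, a glycoprotein of melanosomes and of lipid-laden macrophages, was at 47.4 and 42.6 CPM in fibroblasts. WT macrophages held 0 Gpnmb UMIs, which puts the ratio at no more than 0.044 when 3 UMIs are allowed, and mgR macrophages held 35, a ratio of 0.061 (0.042 to 0.087).

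**Figure D2:**
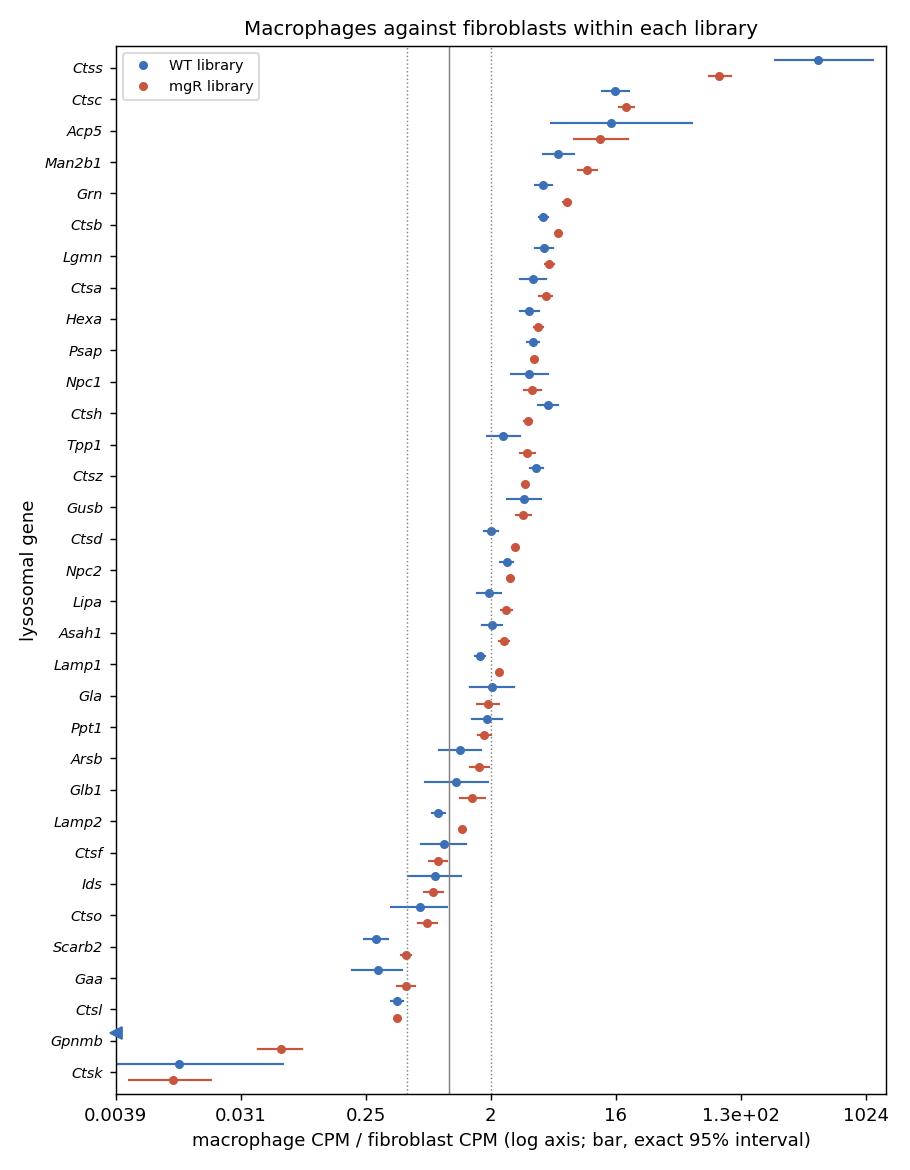
Ratio of macrophage CPM to fibroblast CPM within the WT library (blue) and the mgR library (red) for the 33 lysosomal genes compared; bars are exact 95% intervals, dotted lines mark 2-fold, the axis is logarithmic, and the triangle at the left edge stands for a WT count of 0. Ctss lies furthest to the right (465-fold and 89.9-fold) and Ctsk and Gpnmb furthest to the left.

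Against endothelial cells the genes that met the minimum lay more to one side. In WT endothelial cells no lysosomal gene reached that minimum alone, and Lamp2 had the most UMIs, 46. Each gene compared therefore met it only together with its macrophage UMIs, which favours genes of macrophages. How far this set the counts that follow was not tested. Of 27 genes compared, 18 were at least 2-fold higher in macrophages in both libraries, against 16.3% of all genes compared, and 0 were at least 2-fold lower, against 7.97%. Ctss was 28.3-fold and 30.5-fold higher in macrophages and Ctsb 8.62-fold and 12-fold. Endothelial levels were closest to those of macrophages for Lamp2 (ratios of 1.07 and 1.38), Ctsl (1.39 and 1.24) and Scarb2 (0.776 and 1.45). Gla had 0 UMIs in WT endothelial cells and Arsb 1, and both entered with 3 UMIs, the minimum used for a fold limit. Arsb was therefore not counted as higher, although its ratios from the counts were 5.86 (1.02 to 235) and 3.07 (1.85 to 5.51). The WT endothelial class had 29 cells and 446 lysosomal UMIs, so most of its intervals were wide, for example 13.3 to 399 for the ratio of Ctsc, which rested on 2 endothelial UMIs. Ctsk, which had too few UMIs for this comparison in WT, was at 42.5 and 53.9 CPM in endothelial cells from 5 and 47 UMIs. Its macrophage to endothelial ratios from the counts were 0.016 and 0.014, so the count of 0 lower genes leaves it out. Idua, also left out, had ratios of 1.38 and 2.28. The part of the fibroblast markers found in this class in the endothelial Ctsk level was not tested.

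Macrophages were then divided by Lyve1 and Folr2, markers of resident tissue macrophages, against Cx3cr1 and Cd72. A cell went to the pair with more UMIs, given at least 2. This gave 74 WT and 929 mgR Lyve1/Folr2 macrophages, or 33.0% and 60.4% of macrophages, and 98 and 384 Cx3cr1/Cd72 macrophages, or 43.8% and 25%. In both libraries the lysosomal genes made up more of the transcriptome of Lyve1/Folr2 macrophages (1.89% in WT and 1.78% in mgR) than of Cx3cr1/Cd72 macrophages (1.27% and 1.29%).

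Of 31 genes with at least 20 UMIs in the 2 sets together in each library, 14 were at least 1.5-fold higher in Lyve1/Folr2 macrophages in both libraries, against 13.4% of the 5554 genes compared. None of the 31 was at least 1.5-fold lower in both libraries, against 7.71% of all genes. The median log2 ratio was 0.67 in WT and 0.56 in mgR, beside 0.11 and 0.04 for all genes. The WT and mgR ratios come from different cells, but 2 libraries of different genotype are not replicates. In each library the sets were chosen by the same 4 markers.

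The largest difference was that of Ctsd, which was at 1137 CPM in WT Lyve1/Folr2 macrophages and 271 CPM in WT Cx3cr1/Cd72 macrophages, a ratio of 4.20 (3.56 to 4.98). In the mgR library the levels were 1115 and 399 CPM, a ratio of 2.79 (2.64 to 2.96). Ctsl followed with ratios of 3.39 and 2.51, Grn with 2.56 and 2.20, Ctsb with 2.44 and 2.20 and Lamp1 with 2.27 and 1.97. Tpp1 had ratios of 2.37 and 1.80, Npc1 of 2.06 and 1.51, Lgmn of 1.81 and 1.68, Lamp2 of 1.64 and 1.55, and Hexa of 1.59 and 1.66. The remaining genes past the limit were the rarer hydrolases Arsb (4.06 and 2.03), Glb1 (2.27 and 1.55), Gaa (1.80 and 2.64) and Gla (1.74 and 2.04), with at most 48 UMIs in any WT set. The set thus spans aspartic and cysteine proteases, glycosidases and membrane proteins alike.

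A smaller group leaned the other way. Ctss was at 1573 CPM in WT Lyve1/Folr2 macrophages and 2143 CPM in WT Cx3cr1/Cd72 macrophages, a ratio of 0.734 (0.672 to 0.801), and the mgR ratio was 0.767 (0.746 to 0.789). Ctsh had ratios of 0.581 (0.491 to 0.684) and 0.718 (0.682 to 0.757), and Ctsz of 0.740 (0.661 to 0.827) and 0.757 (0.729 to 0.785). Gusb was below 1 in both, at 0.904 (0.658 to 1.24) and 0.781 (0.709 to 0.860). These 4 were the only genes of the 31 below 1 in both libraries, against 1868 of all 5554 genes compared. Above 1 in both were 26 of the 31, against 2402 of all genes. Ctsc (1.57 and 1.36), Man2b1 (1.65 and 1.48) and Ctso (1.7 and 1.36) passed 1.5-fold in WT alone, and Ctsf (1.38 and 2.07) in mgR alone. Lipa (1.01 and 1.41), Acp5 (1.09 and 0.979), Psap (1.25 and 1.06), Npc2 (1.14 and 1.13), Asah1 (1.33 and 1.40), Ctsa (1.22 and 1.24), Ppt1 (1.15 and 1.03), Scarb2 (1.14 and 1.15) and Ids (1.2 and 1.21) differed by less.

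**Figure D3:**
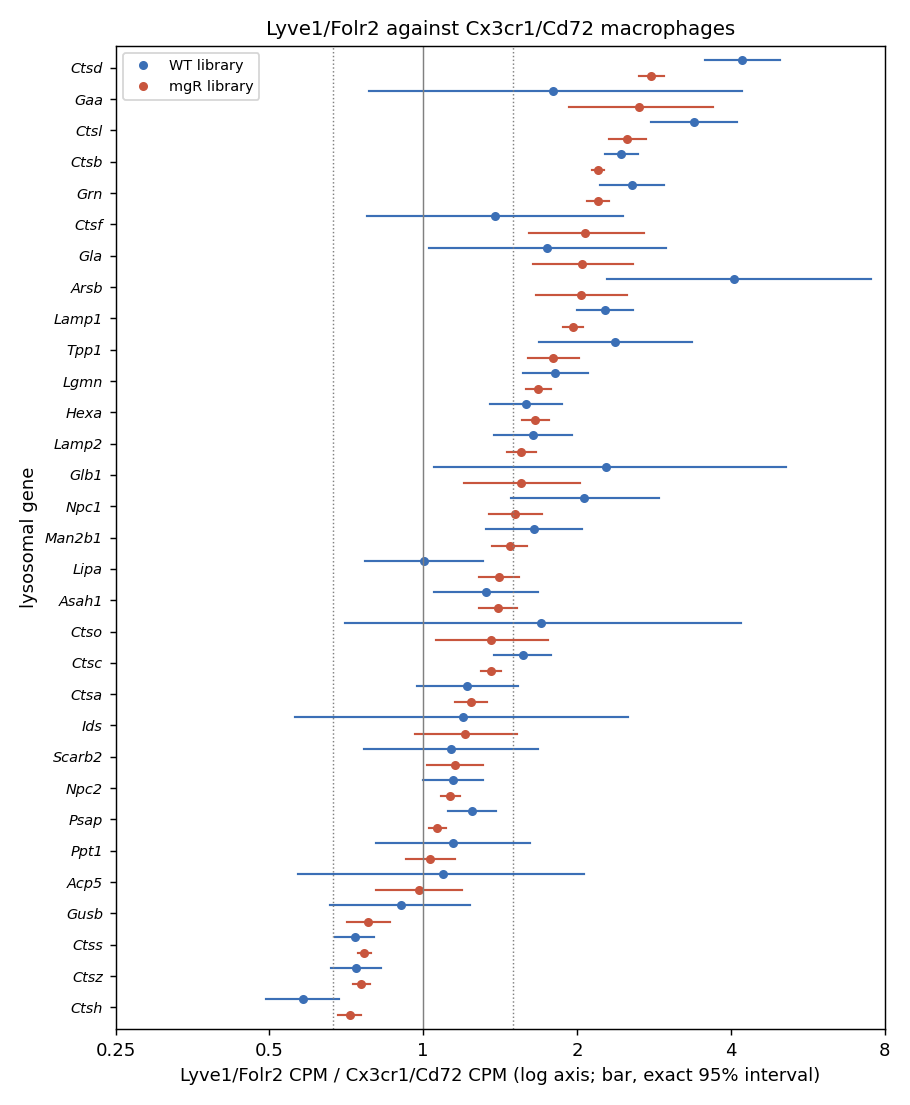
Ratio of CPM in Lyve1/Folr2 macrophages to CPM in Cx3cr1/Cd72 macrophages within the WT library (blue) and the mgR library (red) for the 31 lysosomal genes compared; bars are exact 95% intervals, dotted lines mark 1.5-fold and the axis is logarithmic. Ctsd, Ctsl, Grn, Ctsb and Lamp1 lie to the right of the upper line in both libraries, and Ctss, Ctsz and Ctsh lie left of 1 in both.

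Promoter sequence was available for 32 of the 37 genes, as 250 bases before and 50 after the transcript start in RefSeq (GRCm38.p6). They were searched on both strands for the E-box CACGTG, for the longer palindrome TCACGTGA, which contains it, and for TCACGTGA with a further G before and C after it. The longest form was in 0 of the 32, beside 0.370% of the 27025 genes with a promoter. TCACGTGA was in 4 (12.5%: Ctsa, Ctsd, Gla and Mcoln1), beside 1.12% of all genes, and CACGTG was in 11 (34.4%), beside 8.09% of all genes. Of the 14 genes that were at least 1.5-fold higher in Lyve1/Folr2 macrophages, 12 had a promoter in the table and 7 of those held CACGTG (Ctsd, Ctsl, Lgmn, Gla, Glb1, Gaa and Lamp1). Of the 17 that were compared but did not pass the limit, 15 had a promoter and 2 held CACGTG (Ctsa and Ctsf). Over all genes compared, CACGTG was in 16.7% of those at least 1.5-fold higher, 14.5% of those at least 1.5-fold lower and 12.6% of the others. Some genes had several windows, and a match in any of them counted. The matches of Ctsa, Ctsl and Lgmn lie in windows that do not cover the annotated start of their gene. A match says only that the letters are present.

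Promoters are shown for 3 genes with a match that were higher in Lyve1/Folr2 macrophages. That of Ctss, which was lower there by less than 1.5-fold, is shown beside them. They were picked as examples. Grn, Tpp1, Lamp2, Hexa and Arsb were also higher there and hold no CACGTG in their promoter. Ctsa holds TCACGTGA at 2 places but did not pass 1.5-fold. Capitals mark TCACGTGA in Ctsd and Gla and CACGTG in Lamp1, and the Ctss window holds neither. A further CACGTG near the 5′ end of the Ctsd window is left in lower case. The windows are chr7:142387778-142388077 on the minus strand for Ctsd, chrX:134600956-134601255 on the minus strand for Gla, chr8:13158911-13159210 on the plus strand for Lamp1 and chr3:95526536-95526835 on the plus strand for Ctss, and each covers the start of its gene.
Ctsd: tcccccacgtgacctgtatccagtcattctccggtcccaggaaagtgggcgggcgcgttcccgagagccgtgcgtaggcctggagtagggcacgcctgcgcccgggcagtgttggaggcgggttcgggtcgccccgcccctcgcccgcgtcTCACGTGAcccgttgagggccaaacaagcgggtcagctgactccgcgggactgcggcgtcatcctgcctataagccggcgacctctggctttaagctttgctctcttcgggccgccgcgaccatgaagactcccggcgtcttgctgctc
Gla: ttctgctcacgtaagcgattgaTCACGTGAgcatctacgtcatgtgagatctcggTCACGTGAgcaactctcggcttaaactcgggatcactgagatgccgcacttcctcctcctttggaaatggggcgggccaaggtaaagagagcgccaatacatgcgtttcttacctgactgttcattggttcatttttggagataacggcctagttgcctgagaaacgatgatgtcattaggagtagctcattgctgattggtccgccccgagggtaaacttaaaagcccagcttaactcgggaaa
Lamp1: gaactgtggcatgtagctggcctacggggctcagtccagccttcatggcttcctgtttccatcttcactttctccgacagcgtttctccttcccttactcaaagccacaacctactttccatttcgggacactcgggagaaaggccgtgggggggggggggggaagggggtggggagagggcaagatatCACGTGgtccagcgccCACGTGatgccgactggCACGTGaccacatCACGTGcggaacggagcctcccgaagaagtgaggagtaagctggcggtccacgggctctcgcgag
Ctss: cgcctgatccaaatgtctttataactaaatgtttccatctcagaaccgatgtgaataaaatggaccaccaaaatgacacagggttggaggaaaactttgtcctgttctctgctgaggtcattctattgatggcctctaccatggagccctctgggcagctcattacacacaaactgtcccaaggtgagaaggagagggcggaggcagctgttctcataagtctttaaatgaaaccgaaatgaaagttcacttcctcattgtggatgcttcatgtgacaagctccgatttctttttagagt
Distances are counted from the RefSeq transcript start that sets each window. The match of Ctsd begins 99 bases before that start, those of Gla 228 and 195 bases before it, and the 4 of Lamp1 lie 61, 45, 28 and 15 bases before it. The annotated gene starts of Ctsd (chr7:142388038) and Gla (chrX:134601125) lie elsewhere in their windows, and the match of Ctsd lies after its annotated start.

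The mgR and WT libraries were then compared in each class. With 1 library per genotype, an effect of the mgR allele cannot be told apart from other differences between the libraries. In all macrophages, 34 genes had at least 50 UMIs. None was at least 1.5-fold higher in mgR, against 15.8% of the 9378 genes compared, and none was at least 1.5-fold lower, against 6.25%. The 9378 genes include those near the minimum of 50 UMIs, which have few in the smaller WT library and pass 1.5-fold more easily by counting error. Of the 34, Mcoln1 had the fewest, 19 in WT and 173 in mgR. The shares over all genes, here and in the mgR to WT comparisons below, were not matched for UMI count. Ratios of mgR to WT ran from 0.792 for Gla to 1.45 for Ctsd, and the median log2 ratio was 0.10, beside 0.11 for all genes. The interval lay above 1 for 9 genes, against 17.8% of all genes, and below 1 for 4, against 9.43%.

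The higher genes were led by Ctsd, at 583 CPM in WT and 844 CPM in mgR, a ratio of 1.45 (1.35 to 1.56). Grn followed, at 658 and 906 CPM with a ratio of 1.38 (1.29 to 1.47), then Tpp1 with 1.33 (1.14 to 1.56), Ctsa with 1.22 (1.10 to 1.36), Lamp1 with 1.19 (1.13 to 1.26) and Npc2 with 1.17 (1.10 to 1.24). Lipa, Ctsb and Ctsc were the other 3, with ratios of 1.14, 1.09 and 1.06. The 4 lower genes were all cysteine cathepsins: Ctsz (0.867, 0.824 to 0.912), Ctsl (0.900, 0.827 to 0.982), Ctsh (0.909, 0.846 to 0.977) and Ctss (0.925, 0.889 to 0.962). For the other 21 genes compared the interval held 1, as for Psap (0.956, 0.909 to 1.01), Lgmn (1.04, 0.975 to 1.12) and Lamp2 (1.07, 0.982 to 1.16).

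Of the 9 genes, 5 (Ctsb, Ctsd, Tpp1, Lamp1 and Grn) were among those at least 1.5-fold higher in Lyve1/Folr2 macrophages, as were 14 of the 31 lysosomal genes compared there. The Lyve1/Folr2 macrophages held 33.7% of macrophage UMIs in WT and 61.9% in mgR. Within Lyve1/Folr2 macrophages Ctsd was at 1137 CPM in WT and 1115 CPM in mgR, a ratio of 0.981 (0.900 to 1.07), Grn had 1.03 (0.947 to 1.13), Lamp1 0.944 (0.872 to 1.02) and Tpp1 1.01 (0.819 to 1.26). Within Cx3cr1/Cd72 macrophages Ctsd was at 271 and 399 CPM, a ratio of 1.48 (1.27 to 1.73), Grn had 1.2 (1.07 to 1.36), Tpp1 1.33 (1.004 to 1.79) and Lamp1 1.09 (0.980 to 1.21). Npc2 was higher in mgR in both sets, with ratios of 1.14 (1.03 to 1.27) and 1.16 (1.05 to 1.27). When the mgR profiles of the 3 macrophage groups were combined in the proportions of the WT library, the ratio of Ctsd went from 1.45 to 1.10, of Grn from 1.38 to 1.10, of Lamp1 from 1.19 to 0.992 and of Ctsb from 1.09 to 0.884. Npc2 hardly moved, from 1.17 to 1.14, and Ctsl and Gla moved further from 1, from 0.900 to 0.704 and from 0.792 to 0.678. Of the 34 genes, 25 had ratios above 1 before this weighting and 14 after it. Over all genes compared these counts were 5836 of 9378 before and 5578 of 9355 after. The median log2 ratio of the lysosomal genes was then -0.01, while that of all genes was 0.10. The part of the macrophage mix in the mgR to WT ratios was described by this weighting but was not tested.

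Ctsl had the lowest ratio of the 34 genes within Lyve1/Folr2 macrophages. It was at 746 CPM in WT (363 UMIs) and 483 CPM in mgR (4022 UMIs), a ratio of 0.647 (0.581 to 0.722), and it was the only gene of 34 at least 1.5-fold lower there, against 9.30% of all genes. None was at least 1.5-fold higher, against 14.0%. Ctsb (0.872, 0.832 to 0.914), Psap (0.858, 0.791 to 0.931), Lgmn (0.892, 0.808 to 0.987) and Arsb (0.679, 0.505 to 0.931) were also lower with intervals below 1. In Cx3cr1/Cd72 macrophages 2 of 32 genes were at least 1.5-fold higher, against 16.1%, and 1 was lower, against 5.90%. These were Ctso (1.53, 0.811 to 3.18), Naglu (1.77, 0.810 to 4.59) and Ctsf (0.548, 0.348 to 0.886), from 11, 7 and 27 UMIs in WT.

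The mixture of sexes moved with some of these values. In macrophages with Xist alone (76 WT and 1039 mgR cells) the ratio of Ctsd was 1.72 (1.51 to 1.96) and that of Grn 1.59 (1.41 to 1.81), both past 1.5-fold. Ids was the third gene past that limit there (1.98, 0.948 to 4.97, from 7 WT UMIs), and 18.2% of all genes compared were. In macrophages with Y-linked transcripts alone (90 and 295 cells) they were 1.10 (0.995 to 1.22) and 1.24 (1.12 to 1.36). The genes past 1.5-fold in those cells were Glb1 (1.97, 1.05 to 4.09), Acp5 (1.83, 1.15 to 3.04) and Naglu (1.64, 0.809 to 3.76), again 3, against 17.2% of all genes, from 11, 21 and 9 UMIs in WT. Within Lyve1/Folr2 macrophages the lower level of Ctsl had a ratio of 0.856 (0.686 to 1.08) in Xist cells and 0.499 (0.430 to 0.580) in Y-linked cells. Lgmn was above 1 in macrophages with Xist (1.25, 1.10 to 1.43) and below 1 in those with Y-linked transcripts (0.887, 0.799 to 0.988). Hemoglobin transcripts, a sign of red cell RNA, summed to 193 CPM in WT and 1156 CPM in mgR macrophages, and neutrophil markers to 4.15 and 80.4 CPM, and their part in these ratios was not tested.

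**Figure D4:**
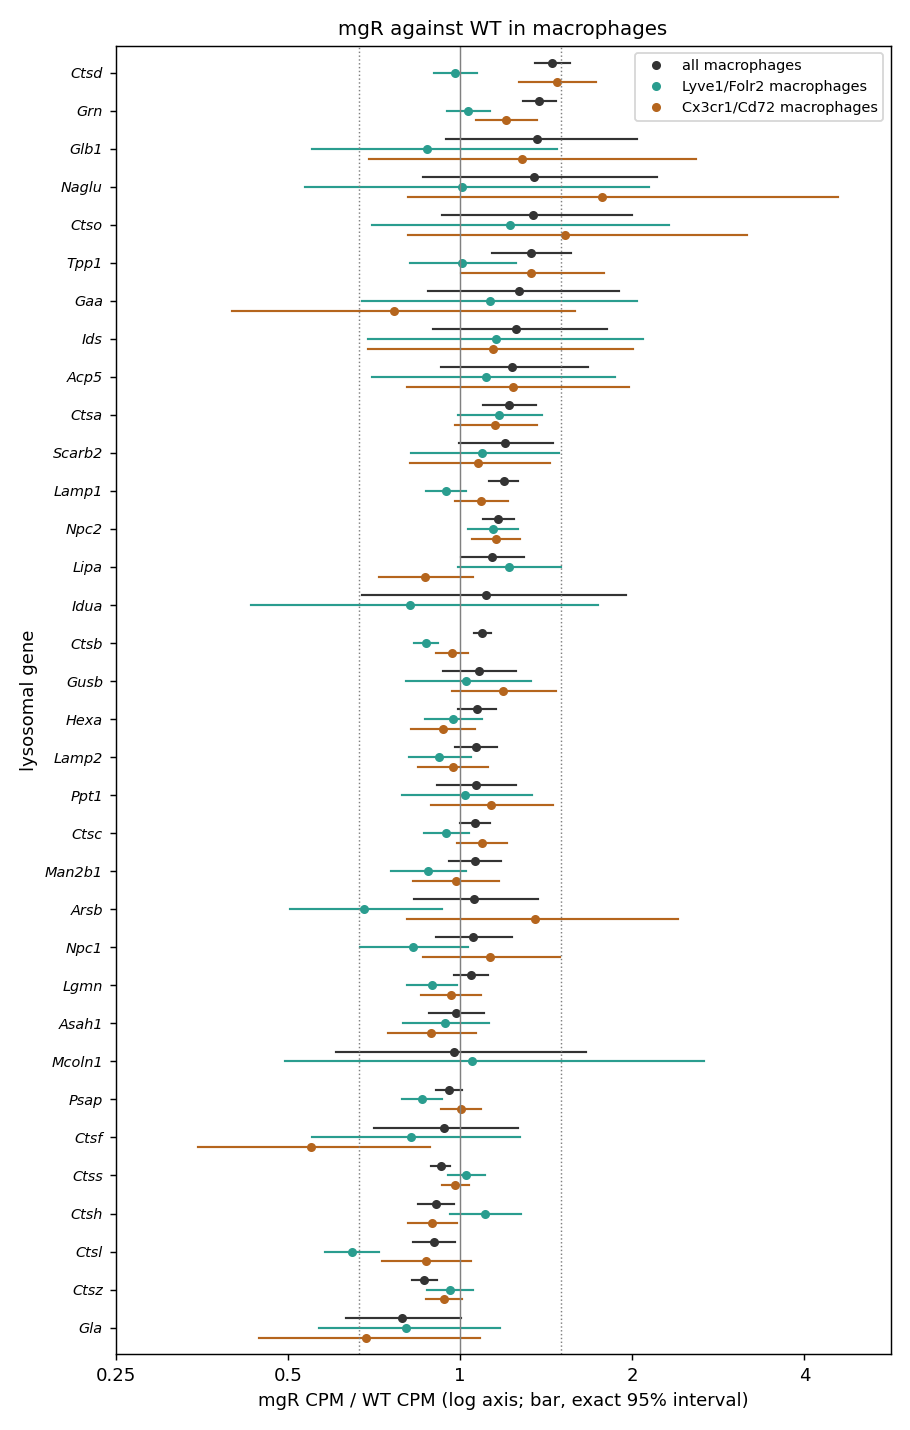
Ratio of mgR CPM to WT CPM for the 34 lysosomal genes compared, in all macrophages (black), in Lyve1/Folr2 macrophages (green) and in Cx3cr1/Cd72 macrophages (brown); bars are exact 95% intervals, dotted lines mark 1.5-fold and the axis is logarithmic. Every black point lies between the dotted lines, the black points of Ctsd and Grn lie to the right of their green points near 1, and the green point of Ctsl lies left of the lower line at 0.647.

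In fibroblasts 35 genes were compared, of which 1 was at least 1.5-fold higher in mgR, against 6.67% of 9456 genes, and 1 was at least 1.5-fold lower, against 7.84%. The median log2 ratio was -0.10, beside -0.05 for all genes, with 3 intervals above 1, against 9.93% of all genes, and 8 below it, against 13.3%. The lower genes included the main membrane proteins: Lamp2 was at 499 CPM in WT and 360 CPM in mgR, a ratio of 0.720 (0.665 to 0.781), Scarb2 at 287 and 211 CPM (0.733, 0.660 to 0.815) and Lamp1 at 521 and 450 CPM (0.864, 0.80 to 0.933). Man2b1, the gene past the limit, had a ratio of 0.652 (0.496 to 0.864) from 76 and 182 UMIs, and it was no longer past 1.5-fold with median scaling, after thinning to 2000 UMIs, with the cells of several rules kept or in cells with Y-linked transcripts alone (0.729, 0.466 to 1.15). Gaa (0.798), Asah1 (0.809), Ctsb (0.848) and Ctsl (0.898) were the others with intervals below 1. Lamp2 was lower in mgR both in fibroblasts with Xist (0.760, 0.660 to 0.878) and in those with Y-linked transcripts (0.677, 0.594 to 0.773), as was Ctsl (0.849 and 0.892).

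The fibroblast genes above 1 were Ctsh, Npc2 and Ctss. Ctsh was at 113 CPM in WT and 142 CPM in mgR (1.26, 1.08 to 1.48) and Npc2 at 298 and 330 CPM (1.11, 1.004 to 1.22). Ctsk, the fibroblast cathepsin, was at 62.2 and 72.7 CPM, a ratio of 1.17 (0.944 to 1.46) that held 1. Ctss had the largest ratio, 4.78 (2.25 to 12.1), from 7 UMIs in WT and 123 in mgR. The 8 macrophage check markers moved in the same direction in fibroblasts, from 25.5 CPM in WT to 99.2 CPM in mgR, which is 0.281% and 0.920% of their level in macrophages. Ctss stood at 0.215% and 1.11% of its own macrophage level. Of the 123 mgR Ctss UMIs, 90 were in the 234 fibroblasts that also held a UMI of these markers (49.2 CPM), and the 645 fibroblasts without one had 7.55 CPM, beside 4.66 CPM in the 289 such WT fibroblasts. In WT all 7 Ctss UMIs were in fibroblasts without a marker UMI, and the 33 with one held 0. With 7 and 33 UMIs in those cells Ctss fell below the minimum of 50 and was not compared there, and none of the 32 genes that were compared was at least 1.5-fold higher in mgR. No other gene came so close to the marker level: Ctsc, the next lowest, was at 6.27% and 5.24% of its macrophage level.

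**Figure D5:**
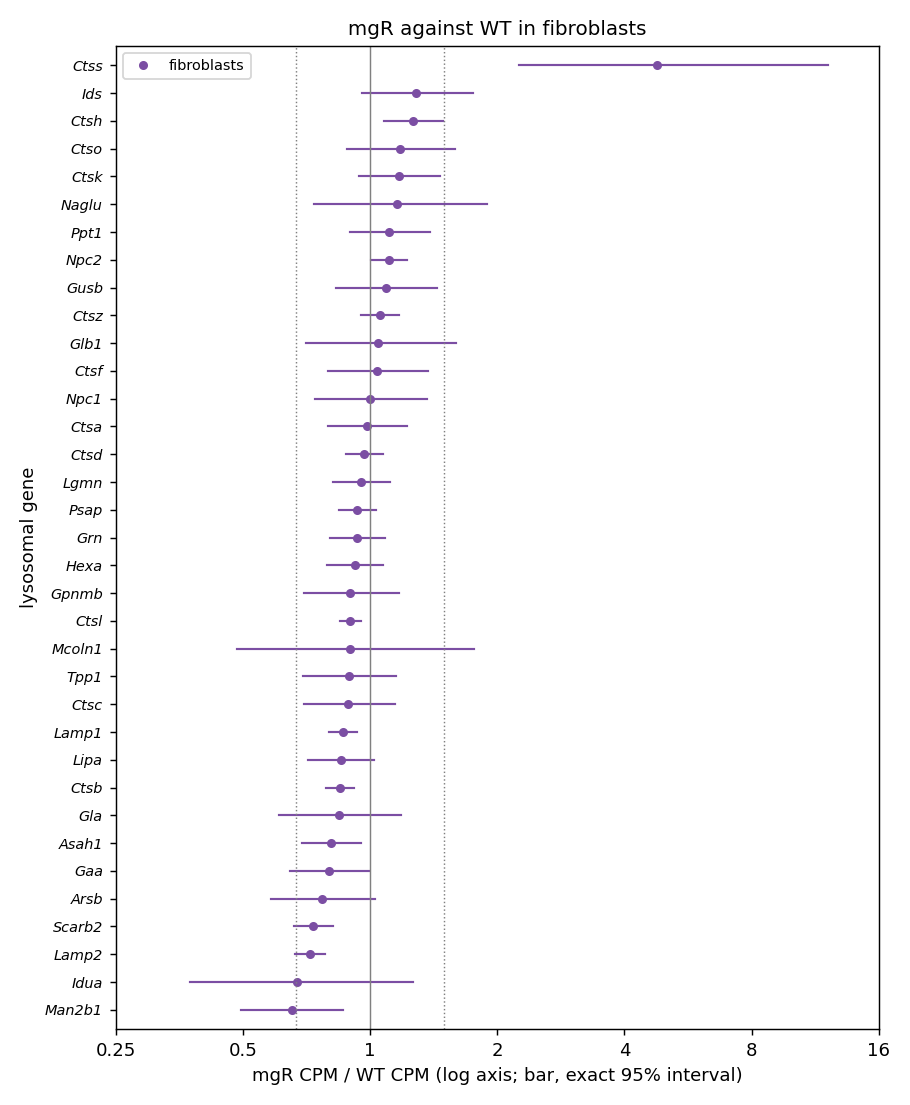
Ratio of mgR CPM to WT CPM in fibroblasts for the 35 lysosomal genes compared; bars are exact 95% intervals, dotted lines mark 1.5-fold and the axis is logarithmic. Ctss stands alone at the top with 4.78, and Man2b1, Lamp2 and Scarb2 are among the lowest, with intervals left of 1.

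In endothelial cells 18 genes were compared. Ctsz and Ctsh were at least 1.5-fold higher in mgR, 2 of 18 against 17.8% of 3373 genes. Ctsz was at 111 CPM in WT (13 UMIs) and 244 CPM in mgR (213 UMIs), a ratio of 2.21 (1.26 to 4.22), and Ctsh at 196 and 311 CPM (1.59, 1.04 to 2.55). Grn and Scarb2 were at least 1.5-fold lower, 2 of 18 against 11.6%, with ratios of 0.635 (0.394 to 1.07) and 0.643 (0.350 to 1.27) whose intervals held 1. Marker transcripts of other cells also differed in this class: B cell markers went from 0 UMIs in WT to 43 in mgR (49.3 CPM), and red cell transcripts from 315 to 71.1 CPM, and their part in these ratios was not tested. With the doubled class thresholds neither Ctsz nor Ctsh passed 1.5-fold, and adding the cells that met several rules raised the lysosomal share of endothelial UMIs from 0.379% to 0.541% in WT and from 0.392% to 0.518% in mgR.

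The smaller classes were described by levels only. Melanocytes (23 WT and 8 mgR cells) held Gpnmb at 1239 and 1223 CPM, from 80 and 34 UMIs, the highest level of that gene in any class, and Ctsb at 1131 and 1115 CPM. Dendritic cells (48 and 169 cells) shared Ctss (956 and 969 CPM), Psap (1090 and 1290 CPM) and Ctsz (726 and 596 CPM) with macrophages, but had Ctsd at 24.4 and 25.9 CPM and Ctsl at 14.7 and 14.3 CPM. Ppt1 was higher in dendritic cells (213 and 271 CPM) than in macrophages (118 and 126 CPM). Neutrophils (16 and 37 cells) had the highest Ctsd level of any class, 1290 CPM in WT and 878 CPM in mgR from 52 and 76 UMIs, and the 878 CPM of mgR lay close to the 844 CPM of mgR macrophages. Macrophage markers, which include the broadly myeloid Fcer1g and Tyrobp, summed to 8359 and 9625 CPM in this class, with 5 of 8 at 0 in WT and 1 of 8 in mgR. The mgR cells also held hemoglobin transcripts at 71070 CPM, beside 645 CPM in WT, and the part of this in the lower mgR level of Ctsd was not tested. T cells (87 and 137 cells) were led by Npc2 (328 and 328 CPM) and Psap (261 and 252 CPM), and held Acp5 at 53.8 and 30.5 CPM, near its level in macrophages (35.3 and 43.6 CPM).

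A further 97 lysosomal genes from 6 lists were read in the same way. In macrophages 86 had at least 50 UMIs, with 8 at least 1.5-fold higher and 4 lower in mgR, against 15.8% and 6.25% of all genes, and a median log2 ratio of 0.08, beside 0.11. In fibroblasts 83 did, with 5 higher and 6 lower, against 6.67% and 7.84%, and a median of -0.09, beside -0.05. Of the subunits of the V-ATPase, the proton pump that acidifies the lysosome, 16 were compared in macrophages with 0 past 1.5-fold, from Tcirg1 (0.708, 0.579 to 0.871) to Atp6ap1 (1.42, 1.19 to 1.69). Of these subunits 9 of 16 were at least 2-fold higher in macrophages than in fibroblasts, against 15.1% of all genes, and 5 of 16 at least 1.5-fold higher in Lyve1/Folr2 than in Cx3cr1/Cd72 macrophages, against 13.4%, with 0 lower in either comparison, against 20.8% and 7.71%. In fibroblasts 2 of 16 subunits were at least 1.5-fold lower in mgR, against 7.84%, and 0 higher, against 6.67%, and those with at least 200 UMIs ran from Atp6v0a1 (0.651, 0.489 to 0.875) to Atp6v1g1 (1.36, 1.19 to 1.55).

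Among the other hydrolases of macrophages with at least 200 UMIs, the minimum for the highest and lowest genes named from each list, Smpd1, coding for acid sphingomyelinase, had the highest mgR to WT ratio (1.95, 1.07 to 3.97) from 11 and 200 UMIs, and Napsa, an aspartic protease, the lowest (0.524, 0.405 to 0.684). Smpd1 was also the highest in fibroblasts (1.25, 0.904 to 1.77), and Scpep1, a serine carboxypeptidase, was the lowest (0.733, 0.610 to 0.883). Of the membrane proteins, Tmem192 was highest (1.72, 1.2 to 2.54) and the cystine transporter Ctns lowest (0.544, 0.396 to 0.760) in macrophages, and in fibroblasts they ran from Sppl2a (1.01, 0.840 to 1.21) to Litaf (0.778, 0.647 to 0.94).

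The cystatins Cst3 and Cstb, inhibitors of the cysteine cathepsins, were abundant. Cst3, coding for the secreted inhibitor cystatin C, was at 3260 CPM in WT and 4873 CPM in mgR fibroblasts, a ratio of 1.49 (1.45 to 1.54), and at 3794 and 4026 CPM in macrophages. In fibroblasts its level was above that of each of the 37 lysosomal genes, Ctsl included. Cstb, coding for the intracellular cystatin B, was at 1198 and 1018 CPM in macrophages (0.850, 0.809 to 0.894). Serpinb6a, which was on the same list but is not a cystatin, was higher in mgR in macrophages (1.51, 1.36 to 1.67) and in fibroblasts (1.16, 1.07 to 1.25). Of the 8 genes of this list, 4 were compared in fibroblasts, Serpinb6a included. All 4 had intervals above 1, against 9.93% of all genes. Of the 3 compared in macrophages, 2 were above 1 and 1 below it, against 17.8% and 9.43%. In fibroblasts Cst6, coding for cystatin E/M, was past 1.5-fold (2.59, 1.42 to 5.15) from 12 and 114 UMIs.

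The mannose 6-phosphate receptors, which deliver soluble hydrolases, divided by cell class. M6pr, coding for the cation-dependent receptor, was at 137 and 127 CPM in macrophages and at 46.2 and 38.0 CPM in fibroblasts, ratios of 2.97 and 3.33. Igf2r, coding for the cation-independent receptor, had 0 UMIs in WT macrophages and 40 in mgR macrophages, while fibroblasts held 187 and 463. The macrophage to fibroblast ratio was thus at most 0.019 in WT, with 3 UMIs allowed, and 0.040 (0.028 to 0.055) in mgR. In fibroblasts Igf2r was lower in mgR, at 111 CPM in WT and 74.6 CPM in mgR (0.674, 0.568 to 0.803), and Gnptg was highest of its list (0.920, 0.683 to 1.26). In macrophages the list ran from Vps26a (0.707, 0.610 to 0.824) to Gnptab (1.57, 0.959 to 2.73).

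Of the factors that bind the CLEAR element, Tfe3 was at 103 CPM in WT and 81.3 CPM in mgR macrophages (0.788, 0.664 to 0.942), and was 2.52-fold and 2.28-fold higher there than in fibroblasts. Mitf was at 38.8 and 43.3 CPM in macrophages, 3.12-fold and 2.40-fold above fibroblasts. Tfeb was rare, at 19.4 CPM in WT (28 UMIs) and 11.4 CPM in mgR macrophages (153 UMIs), a ratio of 0.587 (0.390 to 0.912) that was past 1.5-fold, with macrophage to fibroblast ratios of 1.26 (0.712 to 2.24) and 1.02 (0.765 to 1.38). Among the subunits of the Ragulator and Rag complexes, which anchor mTORC1 to the lysosome, Lamtor1 was highest in mgR macrophages (1.62, 1.33 to 1.98), and in fibroblasts the list ran from Lamtor3 (0.856, 0.706 to 1.04) to Lamtor4 (1.36, 1.15 to 1.60). Transcript levels of these factors do not show where the proteins are or how active they are.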

How the data were processed

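UMI counts per gene and cell were deposited as 1 matrix per library, which the authors made with Cell Ranger 7.1.0 on build mm10, according to the submitters' processing notes. The annotation, and whether intronic reads were counted, are not given in the sources used here. The 2 libraries held 5381844 (WT) and 28215539 (mgR) UMIs. From the counts, UMIs were summed over the cells of a class and scaled to CPM with Python 3.11.15, numpy 2.4.6 and scipy 1.17.1. Levels have exact Poisson intervals, shares exact Clopper-Pearson intervals and ratios exact conditional binomial intervals, all at 95%. UMIs at the 3′ end do not scale with transcript length, so levels were compared between genes without a length correction. Genes with at least 50 UMIs in the classes compared (20 in each library for the macrophage sets) were compared, and ratios are printed from the counts themselves. To decide whether a gene passed a fold limit, counts below 3, 0 included, were raised to 3 UMIs. A gene was counted as higher or lower past 1.5-fold, or past 2-fold in both libraries between classes. No test was made because each genotype has 1 library and cells are not replicates. T cells, dendritic cells and neutrophils were assigned with at least 2 UMIs of their markers and melanocytes with at least 5, among cells that met none of the 3 main rules. Doublets were kept, and Scrublet (scanpy 1.11.5) marked 0.800% of WT and 1.48% of mgR cells. The ratio calculation was tested on simulated data. All 37 genes are reported, and of the other lists those with the highest and lowest ratio among genes with at least 200 UMIs, with inhibitors, sorting receptors and transcription factors. Genes, lists and comparisons were chosen with earlier results of these data known. Alternatives changed the cell and gene filters, class thresholds, scaling, depth, doublets, sex of the cells and the macrophage sets.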

Additional observations from a re-analysis of the deposited data

Results flagged for a closer look

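For 5 genes the interval of the mgR to WT ratio lay above 1 in one cell class and below 1 in another, and these differences between classes were not tested. The same count was not made over all genes, so the 5 have no background. Over all genes the interval lay above 1 for 17.8% and below it for 9.43% in macrophages. In fibroblasts these shares were 9.93% and 13.3%. Ctsb was at 1.09 in macrophages and 0.848 in fibroblasts, and Lamp1 at 1.19 and 0.864. Within Lyve1/Folr2 macrophages, however, Ctsb was at 0.872 and Lamp1 at 0.944, and within Cx3cr1/Cd72 macrophages at 0.969 and 1.09. Ctsh was at 0.909 in macrophages, 1.26 in fibroblasts and 1.59 in endothelial cells. Ctss was at 0.925 in macrophages and 4.78 in fibroblasts, where macrophage marker transcripts were also higher in mgR, and Ctsz was at 0.867 in macrophages and 2.21 in endothelial cells. With the macrophage groups weighted as in WT, the macrophage ratios were 0.884 for Ctsb, 0.992 for Lamp1, 0.992 for Ctsh, 0.992 for Ctss and 0.929 for Ctsz.

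Lgmn went in opposite directions in cells with Xist and cells with Y-linked transcripts. The ratio was 1.25 and 0.887 in macrophages and 1.43 and 0.759 in fibroblasts, in that order. This difference was not tested, and how many animals of each sex gave these cells is not in the labels.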

How the results depend on the processing

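No paired analysis was possible because each genotype has 1 library, and no library could be left out. Of the counts of genes past a fold limit, 112 stayed within 1.5 times the reported count and 40 did not. Of the medians 33 kept their sign and 7 did not, and of the class shares 31 stayed within their interval and 23 did not. Endothelial counts rest on 29 WT cells. The causes were not tested, except that fewer genes reach the minimum after thinning or with the higher minimum.

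Macrophages, 0 higher and 0 lower in mgR: 1 higher with a mitochondrial limit of 5% (Ctsd), 1 after thinning to 2000 UMIs, 3 in Xist cells, 3 in Y-linked cells and 2 in Cx3cr1/Cd72 cells, and 2 lower with no gene filter, 1 in Xist cells, 1 in Lyve1/Folr2 cells and 1 in Cx3cr1/Cd72 cells. Their median log2 ratio of 0.10 became -0.030 with median scaling, -0.047 in Lyve1/Folr2 cells and -0.012 with the macrophage groups weighted as in WT. Fibroblasts, 1 higher and 1 lower: 2 and 0 with cells of several rules, 0 and 0 after thinning, 0 higher at a minimum of 200 UMIs, 3 higher in Xist cells, 2 lower with doubled thresholds, 0 lower with median scaling (Man2b1 lost here, after thinning, with cells of several rules and in Y-linked cells, where Arsb passed instead), and 0 and 2 without macrophage marker UMIs. Endothelial cells, 2 and 2: 0 and 1 with doubled thresholds, 5 and 4 with per-cell means, 1 and 0 after thinning, 1 higher in Y-linked cells, and lower counts of 1 at 5% mitochondrial UMIs, 1 with cells of several rules, 0 at 200 UMIs, 11 with no gene filter and 1 in Xist cells. Their median of -0.03 became 0.12 with per-cell means, 0.19 after thinning, 0.033 at 200 UMIs and 0.31 in Xist cells.

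The 5 genes higher in fibroblasts than in macrophages became 3 with cells of several rules, 2 after thinning, 2 with median scaling, 2 at 200 UMIs, 2 in Xist cells and 3 in Y-linked cells. Those higher in endothelial cells went from 0 to 2 with no gene filter. The 14 higher in Lyve1/Folr2 than in Cx3cr1/Cd72 macrophages became 8 after thinning, and those lower went from 0 to 1 in Y-linked cells (Ctsh).

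The share in WT macrophages was 1.47% at 5% mitochondrial UMIs, 1.52% with per-cell means, 1.52% after thinning and 1.54% in Y-linked cells. In mgR macrophages it was 1.57% with cells of several rules, 1.59% with doubled thresholds, 1.57% after thinning, 1.61% in Xist cells and 1.57% in Y-linked cells. WT fibroblasts had 0.522% in Xist cells and 0.564% in Y-linked cells, and mgR fibroblasts 0.514% with cells of several rules, 0.503% with per-cell means, 0.506% after thinning, 0.502% in Xist cells and 0.488% in Y-linked cells. WT endothelial cells had 0.541% with cells of several rules, 0.439% with doubled thresholds, 0.323% in Xist cells and 0.442% in Y-linked cells, and mgR endothelial cells 0.518%, 0.417% and, in Y-linked cells, 0.376%. The values within each macrophage set, with WT weights and without macrophage marker UMIs were chosen after seeing the data.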
